A study of Mus musculus with 12 samples.

Results

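A stretch of mouse chromosome 1 carries a dense set of overlapping long noncoding RNAs (lncRNAs) in the deposited table. They were chosen by position alone, as every row lying wholly within a fixed window of the mm9 genome build, and they numbered 24 of the 15558 lncRNAs listed. The window was picked around ncRNA_as_chr1_605, already known from these libraries to be far higher in liver nuclei than in whole liver, so levels in that contrast are described without a test.

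All libraries came from polyadenylated liver RNA of 8-week-old mice of the outbred CD-1 stock, and every mouse had been injected with TCPOBOP or PCN. TCPOBOP activates the nuclear receptor CAR and PCN activates the nuclear receptor PXR. Stranded libraries of male whole-liver RNA were made 3 h after injection (11 AM) and 6 h after injection (2 PM) of each agonist, 1 library of 6 pooled livers each, in the experiment coded G81. The same experiment gave 1 unstranded whole-liver library of 6 males 3 h after TCPOBOP and 1 unstranded nuclear library of 2 males 3 h after PCN. Unstranded nuclear RNA 3 h after TCPOBOP was sequenced from 3 female pools of 3 or 4 livers (experiment G86) and 3 male pools of 4 livers (experiment G95). Vehicle-treated mice were not analysed here, so no value is compared with an untreated liver. Values are RPKM, reads scaled to the counted length and to the library's total, and the read numbers behind them were recovered from their steps. Library totals ran from 21941837 to 40291718 reads in G81 and G86 and from 7314289 to 11897587 in the male pools of G95. In bulk RNA, fewer cells of a type and less RNA per cell cannot be told apart.

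Long noncoding RNAs are transcribed and often spliced and polyadenylated like mRNAs but are not known to encode proteins. Many are held in the nucleus, near the site where they are made, so nuclear RNA shows them at levels that whole-cell RNA does not, and many differ between male and female liver. An antisense lncRNA is read from the strand opposite to a gene that it overlaps, an intragenic one lies within a gene, and an intergenic one lies between genes. The table pairs no lncRNA with a gene symbol, and the lncRNAs were not assigned to single genes. Of 17 liver cell type markers 0 matched an entry, so the makeup of the tissue could not be read. In unstranded libraries reads of a lncRNA cannot be told from those of a gene on the other strand, and reads from near-identical gene copies may be split among them.

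The 24 lncRNAs stretched over 536 kb, from 141480982 to 142017368. By identifier, 8 were antisense, 13 intragenic and 3 intergenic, against 1966, 249 and 13343 in the whole table. Class and strand went together, with the 8 antisense lncRNAs on the plus strand and the other 16 on the minus strand. Spans overlapped in 161 of 276 pairs, 81 on the same strand and 80 on opposite strands, and ncRNA_as_chr1_605 alone overlapped 21 others. Spans ran from 9390 to 294684 bases, but the lengths behind the RPKM values ran from 185 to 11281 bases, which is 0.112% to 37.6% of the span. The lncRNAs of the locus are thus neighbours on the same stretch and not independent observations. ncRNA_as_chr1_625, at 141801866-142030551, crossed the end of the window and was left out, with 0.273, 0.159 and 0.220 RPKM in the male nuclear pools. The next lncRNAs outside lay 604066 bases before and 3425717 bases after the window.

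**Figure D1:**
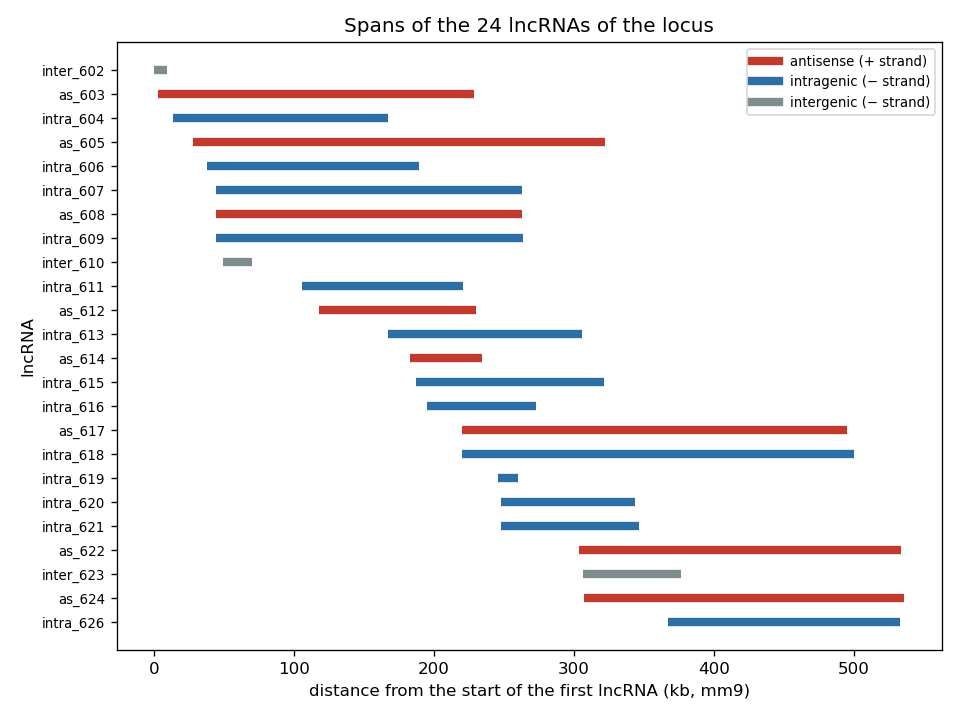
Spans of the 24 lncRNAs along chromosome 1 as bars, in kb from the start of the first one, coloured by class and strand. The antisense lncRNAs on the plus strand lie across the intragenic ones on the minus strand over the whole 536 kb.

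Of all lncRNA reads, the locus took 0.591% to 0.674% with strand information and 0.254% to 0.463% without it. Of the 24, 16 reached 1 RPKM in some library or passed a test and are described singly. The other 8 stayed at or below 0.812 RPKM, and ncRNA_as_chr1_608 had no read in any library. Reads were present in all 12 libraries for 11 lncRNAs.

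The first pattern is one of strand. In stranded whole liver the antisense lncRNAs were all but unread: 0 reads in 3 of the libraries and 1 read, of ncRNA_as_chr1_614 after TCPOBOP at 6 h, in the other. That is 0.0671% of 1491 locus reads (95% Wilson interval 0.0118% to 0.379%), and 0 reads allow a share of at most 0.230% in any of the other 3. In the unstranded whole-liver library, made from the same agonist at the same time, 12.4% of 3957 locus reads fell on antisense lncRNAs (11.4% to 13.5%). The share was 15.5% in PCN nuclei (14.2% to 16.9%). In female TCPOBOP nuclei it was 33.6%, 41.4% and 38.0%, and in male TCPOBOP nuclei 49.3%, 43.9% and 51.7%. All 3 male pools lay above the 3 female pools, with means of 48.3% ± 3.99 and 37.7% ± 3.88 (SD, n = 3). Without ncRNA_inter_chr1_610, which was uneven among the female pools, the groups overlapped, since female pool 2 had 44.8% and male pool 2 had 44.1%, with means of 39.8% ± 4.46 and 48.6% ± 4.03. Intervals and floors here cover counting error alone, as PCR copies were not told apart.

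**Figure D2:**
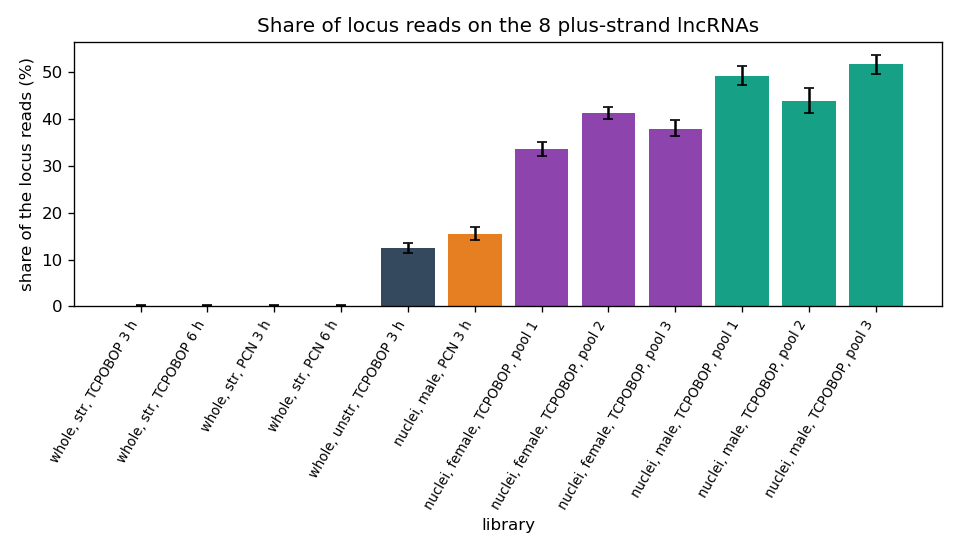
Share of the reads of the 24 lncRNAs that fell on the 8 plus-strand ones, in percent, in each library, as bars with 95% Wilson intervals. Stranded whole liver sits at or near 0, unstranded whole liver and PCN nuclei at 12.4% and 15.5%, and the 6 TCPOBOP nuclear pools between 33.6% and 51.7%.

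Single lncRNAs show the same split between library types. ncRNA_as_chr1_612, at 141598975-141710901, had 1.30 RPKM (129 reads) in unstranded whole liver 3 h after TCPOBOP and no read in the stranded library of that agonist and time. Taking 3 reads per library as the floor, it was at least 27.4-fold higher. ncRNA_as_chr1_624, at 141788309-142017368, had 2.86 RPKM (155 reads) against no read, at least 33.0-fold higher. ncRNA_as_chr1_622, at 141784609-142015030, exceeded that floor too and was at least 20.2-fold higher. Of the 12 lncRNAs of the locus with 0.5 RPKM in either library, 6 were at least 4-fold higher without strand information on the log2(RPKM + 0.1) scale, namely ncRNA_inter_chr1_602 and 5 of 5 antisense ones. By the floor of 3 reads ncRNA_as_chr1_603, with 16 reads against none, was at least 3.40-fold higher, a bound under 4-fold. That excess is shared by the table, since 55.8% of the 1933 lncRNAs compared were at least 4-fold higher there, and the median log2 difference was 2.83 over all 614 antisense lncRNAs and 3.59 over the 5. It rests on 1 library of each type and has no test.

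A pair of minus-strand lncRNAs went the opposite way. ncRNA_intra_chr1_626, at 141848523-142014075, had 8.20 RPKM at 3 h and 10.7 at 6 h after TCPOBOP in stranded whole liver, and 15.98 and 6.87 after PCN, over 39, 55, 76 and 32 reads. It had no read in any of the 8 unstranded libraries. At 3 h after TCPOBOP it was at least 20.4-fold higher in the stranded whole-liver library than in the unstranded one, against the same floor. Its counted length was 185 bases of a span of 165553. ncRNA_intra_chr1_615, at 141668104-141802207, had 1.23, 0.674, 1.18 and 0.573 RPKM in the same 4 stranded libraries, over 22, 13, 21 and 10 reads. It had 1 read in unstranded whole liver, 1 in male pool 2 and none in the other nuclear libraries. Both were at least 4-fold lower in the unstranded library, as were 8.85% of all lncRNAs compared.

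**Figure D3:**
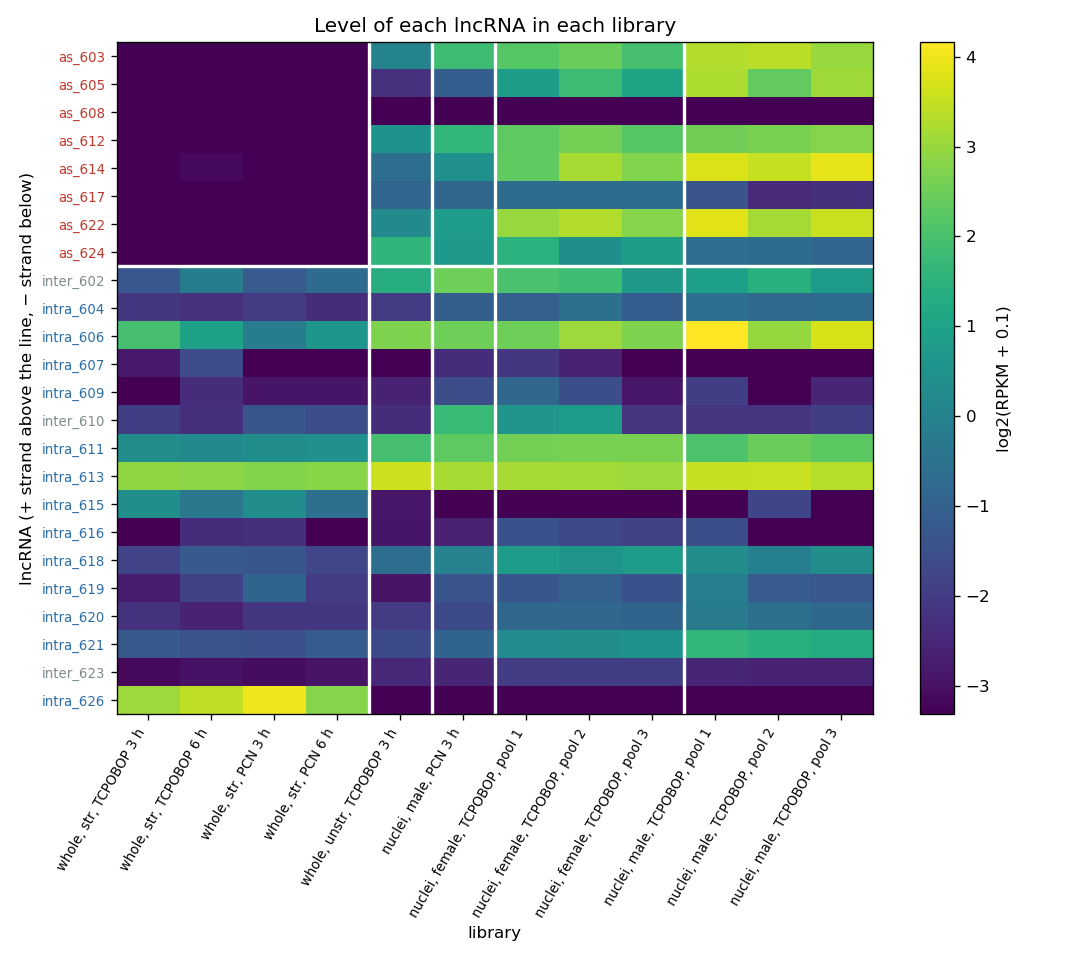
Level of each lncRNA in each of the 12 libraries as log2(RPKM + 0.1), plus-strand lncRNAs above the line and minus-strand ones below. The plus-strand rows are dark in the 4 stranded libraries, and ncRNA_intra_chr1_626 is bright in the stranded libraries alone.

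The level that varied least was that of ncRNA_intra_chr1_613, at 141648201-141786791. In stranded whole liver its RPKM was 7.48 and 7.13 after TCPOBOP, 6.68 and 7.07 after PCN, and it reached 11.8 in unstranded whole liver and 8.92 in PCN nuclei. In female nuclei it had 8.90, 8.57 and 8.22 RPKM, and in male nuclei 11.1, 11.5 and 9.95. It alone took 70.9% to 81.2% of locus reads in whole liver and 29.6% to 42.4% in nuclei. ncRNA_intra_chr1_611, at 141586475-141701897, was likewise even in the stranded libraries, between 1.10 and 1.28 RPKM, with 3.78 in unstranded whole liver and 4.83 in PCN nuclei.

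The order of levels changed with the source of the RNA. In stranded whole liver ncRNA_intra_chr1_626 and ncRNA_intra_chr1_613 led, with overlapping ranges. ncRNA_intra_chr1_613 came first in unstranded whole liver, before ncRNA_intra_chr1_606 at 6.49 RPKM, and in PCN nuclei, before ncRNA_inter_chr1_602 at 5.65. The leaders in female nuclei were ncRNA_intra_chr1_613 (8.56 ± 0.343 RPKM, SD, n = 3) and ncRNA_as_chr1_622 (8.17 ± 1.49). In male nuclei ncRNA_as_chr1_614 had the highest mean at 13.1 ± 1.72, followed by ncRNA_intra_chr1_606 at 12.8 ± 5.03, ncRNA_as_chr1_622 at 11.5 ± 2.69 and ncRNA_intra_chr1_613 at 10.9 ± 0.826. Neighbours in both orders over pools differed by less than their spread. ncRNA_intra_chr1_606 rested on 37, 11 and 30 reads in the male pools. All nuclear libraries were unstranded, so here and below the strand of the reads behind nuclear levels of antisense lncRNAs is not known.

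Nuclear and whole-liver RNA were next set side by side, both unstranded and 3 h after TCPOBOP in males. ncRNA_as_chr1_605, at 141508535-141803218, had 0.108 RPKM (8 reads) in whole liver and 9.33, 5.06 and 8.42 RPKM (183, 68 and 184 reads) in nuclei. ncRNA_as_chr1_614, at 141663901-141715362, had 0.553 RPKM in whole liver and 13.5, 11.2 and 14.6 in nuclei. All 3 nuclear pools were far above the whole-liver library for both, at 70.3 and 23.7 times its level on average.

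ncRNA_as_chr1_622 had 1.10 RPKM in whole liver and 14.1, 8.75 and 11.7 in male nuclei. ncRNA_as_chr1_603, at 141483469-141709311, had 0.917 RPKM and 9.73, 10.4 and 7.96. ncRNA_as_chr1_612 had 5.71, 6.22 and 6.93 RPKM in the nuclei. Of the minus-strand lncRNAs that reached 1 RPKM, 1 was at least 4-fold higher: ncRNA_intra_chr1_621, at 141729113-141827282, had 0.219 RPKM in whole liver and 2.99, 2.56 and 2.32 in nuclei, 11.99 times higher on average.

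Not every antisense lncRNA of the locus was higher in nuclei. ncRNA_as_chr1_624 had 2.86 RPKM in whole liver and 0.558, 0.509 and 0.438 RPKM in male nuclei, 5.71 times lower. ncRNA_as_chr1_617, at 141700840-141976170, had 0.445 RPKM (29 reads) in whole liver and 0.290, 0.0846 and 0.104 RPKM over 5, 1 and 2 reads in nuclei. Both overlap ncRNA_as_chr1_622 on the same strand, which went the other way. ncRNA_intra_chr1_613, ncRNA_intra_chr1_611 and ncRNA_inter_chr1_602 stood at 0.919, 1.26 and 0.822 times the whole-liver level.

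Of the 24 lncRNAs, 20 had at least 0.1 RPKM in 2 or more of the 8 unstranded libraries. On the log2(RPKM + 0.1) scale 7 of them were at least 4-fold higher in male nuclei and 1 at least 4-fold lower, where 3.63% and 3.3% of 7401 lncRNAs were. The median log2 difference was 0.86 over the 20 and 0.27 over all 7401. By class it was 3.21 over 7 antisense, 0.86 over 10 intragenic and -0.09 over 3 intergenic lncRNAs of the locus, where the whole table gave 0.63, 0.84 and 0.19. At least 4-fold higher were 5 of the 7 antisense, 2 of the 10 intragenic and 0 of the 3 intergenic ones. Over the table the shares by class were 8.62%, 19.7% and 2.12%, so the intragenic lncRNAs of the locus were near their class. These values chose the locus and support nothing beyond that.

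The nuclear pools came from experiment G95 and the whole-liver library from G81, so compartment and experiment cannot be told apart. Within G81, nuclei after PCN can be set beside whole liver after TCPOBOP, which differ in agonist as well. There ncRNA_as_chr1_605 had 0.372 RPKM (15 reads) against 0.108, ncRNA_as_chr1_614 1.25 against 0.553, ncRNA_as_chr1_622 1.62 against 1.10 and ncRNA_intra_chr1_621 0.436 against 0.219. Each stood higher in nuclei but far below the male TCPOBOP pools. ncRNA_as_chr1_603 had 3.47 against 0.917 RPKM, and ncRNA_as_chr1_624 1.56 against 2.86. Of 11 lncRNAs compared, ncRNA_inter_chr1_610 alone was at least 4-fold higher and 0 were at least 4-fold lower, where 2.27% and 2.84% of 2075 lncRNAs were.

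**Figure D4:**
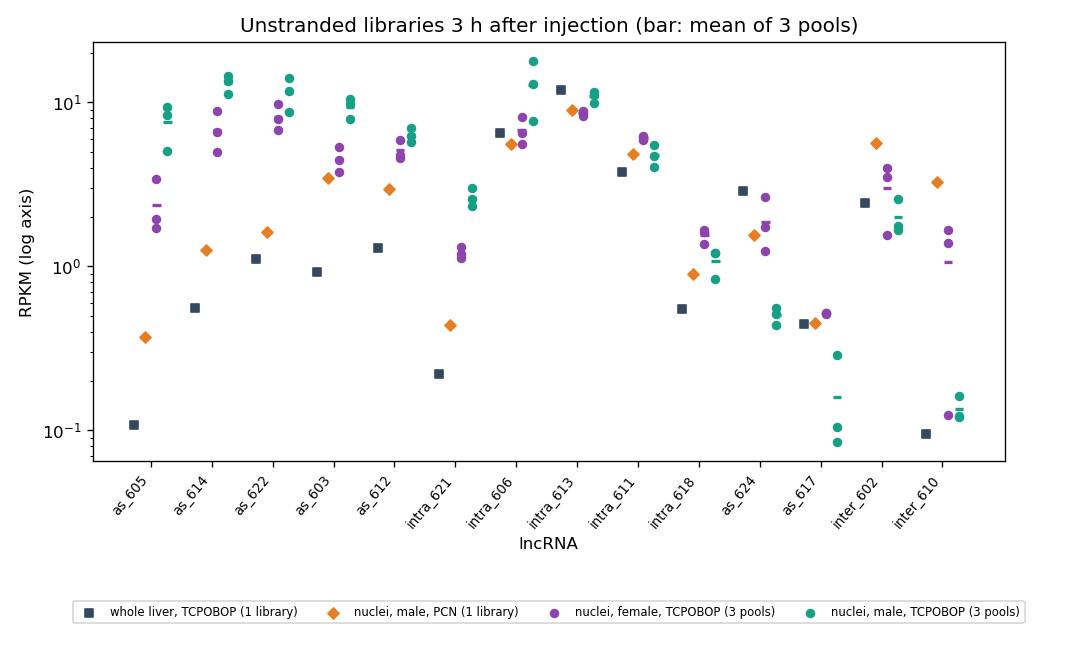
RPKM on a log axis of 14 lncRNAs of the locus in the 8 unstranded libraries, each a point, with a short bar at the mean of 3 pools. From ncRNA_as_chr1_605 to ncRNA_intra_chr1_621 the means rise from whole liver through PCN nuclei and female to male TCPOBOP nuclei, while ncRNA_as_chr1_624 and ncRNA_as_chr1_617 are lowest in male TCPOBOP nuclei.

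The agonists were compared in male nuclei at 3 h, with the 3 TCPOBOP pools of G95 against the 1 PCN library of G81. ncRNA_as_chr1_605 had 0.372 RPKM with PCN against 7.60 ± 2.25 with TCPOBOP (SD, n = 3), given with no test because its level in these TCPOBOP pools led to the window. ncRNA_as_chr1_614 had 1.25 RPKM against 13.1 ± 1.72, 3.28 higher in log2 terms (SE 0.33, limma adjusted p = 0.00956). ncRNA_as_chr1_622 had 1.62 against 11.5 ± 2.69 RPKM, 2.73 higher in log2 terms (SE 0.32, limma adjusted p = 0.0139). On the minus strand, ncRNA_intra_chr1_621 had 0.436 against 2.63 ± 0.343 RPKM, 2.34 higher in log2 terms (SE 0.22, limma adjusted p = 0.00823). In each case the PCN library lay below all 3 TCPOBOP pools.

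Of the other 19 lncRNAs of the locus tested, limma called 4, all higher with TCPOBOP, against 4.27% of 7401 lncRNAs called in either direction, 2.86% higher and 1.41% lower. The remaining call was ncRNA_as_chr1_603, with 3.47 against 9.37 ± 1.27 RPKM (log2 1.40, SE 0.26, limma adjusted p = 0.0422). Its call was lost in 5 of 11 alternative fits, with adjusted p from 0.0103 to 0.0979 in limma, including without any single 1 of the 3 male pools. The calls of ncRNA_as_chr1_614, ncRNA_as_chr1_622 and ncRNA_intra_chr1_621 held in all 11. The fits with a pseudocount of 0.01, with a mean RPKM of at least 1 and with limma-voom also called ncRNA_as_chr1_612 higher, though the main fit did not. ncRNA_as_chr1_612 had 2.98 RPKM with PCN against 6.29 ± 0.616 and did not pass (log2 1.05, SE 0.22, limma adjusted p = 0.0550). Among lncRNAs with a mean RPKM of at least 1, a far larger share of the table was called than 4.27%. The shares over the table are therefore not matched in level to the lncRNAs called here. The median log2 difference was 0.33 over all 20 and 0.25 over all lncRNAs tested. With medians set equal these were 0.07 and 0.00, and with quantile normalization the median of the locus turned to -0.02 against 0.06 over all.

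Several lncRNAs of the locus had a higher value in the PCN library without passing. ncRNA_inter_chr1_610, at 141529903-141550679, had 3.26 RPKM (560 reads) in the PCN library and 0.120, 0.122 and 0.161 RPKM (10, 7 and 15 reads) in the male TCPOBOP pools. Its log2 difference was -3.85 (SE 1.11, limma adjusted p = 0.109). ncRNA_inter_chr1_602, at 141480982-141490371, had 5.65 RPKM with PCN and 1.76, 2.57 and 1.67 with TCPOBOP (log2 -1.48, SE 0.53, limma adjusted p = 0.168). ncRNA_as_chr1_624 had 1.56 RPKM with PCN and 0.502 ± 0.0602 with TCPOBOP (log2 -1.47, SE 0.40, limma adjusted p = 0.0951). ncRNA_inter_chr1_610 was uneven among the female pools that share this fit. With the 4 libraries of the contrast alone, and with limma-voom, it was called lower with TCPOBOP. ncRNA_as_chr1_624 was called lower with TCPOBOP in the fit of lncRNAs with a mean RPKM of at least 1.

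Agonist and experiment cannot be told apart in this contrast, which also shares the male TCPOBOP pools with the nuclear to whole-liver contrast that chose the locus. Of the libraries from G81, the TCPOBOP whole-liver one had 0.108 RPKM of ncRNA_as_chr1_605 and 0.553 of ncRNA_as_chr1_614, below the PCN nuclei. The female TCPOBOP nuclei of G86 lay above the PCN nuclei for both, at 6.35 and 5.44 times on average. ncRNA_as_chr1_622, ncRNA_intra_chr1_621 and ncRNA_as_chr1_603 stood at 5.05, 2.77 and 1.30 times there. ncRNA_as_chr1_624 and ncRNA_as_chr1_617, which were lower in male TCPOBOP than in PCN nuclei, stood at 1.20 and 1.15 times. ncRNA_inter_chr1_602 and ncRNA_inter_chr1_610 stood at 0.533 and 0.324 times. These ratios also set 1 experiment and sex against another and were not tested.

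In stranded whole liver the antisense lncRNAs had 1 read in all, too few to compare the agonists, and 12 minus-strand lncRNAs entered the fit. limma called 0 of the 12 (0% of 2270 lncRNAs), and 0 of the 12 and 162 of the 2270 had an unadjusted p under 0.05. TCPOBOP minus PCN had a median of -0.02 (log2) over the 12 and 0.04 over all tested. The widest difference was that of ncRNA_intra_chr1_606, at 141518435-141670504, with 3.79 RPKM (19 reads) after TCPOBOP and 0.798 (4 reads) after PCN at 3 h. At 6 h it had 1.84 RPKM (10 reads) and 1.43 (7 reads), and the log2 difference was 1.23 (SE 0.56, limma adjusted p = 0.716). The error term of these 4 single libraries is the agonist-by-time interaction with 1 residual degree of freedom, so it measures no spread between pools.

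ncRNA_inter_chr1_610 was lower with TCPOBOP at both times, at 0.159 against 0.303 RPKM at 3 h (32 and 61 reads) and 0.106 against 0.239 at 6 h (23 and 47 reads). Its log2 difference was -0.68 (SE 0.25, limma adjusted p = 0.683). ncRNA_inter_chr1_602 rested on 8 to 22 reads, with 0.308 RPKM after TCPOBOP and 0.347 after PCN at the earlier time, then 0.783 and 0.512.

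Between 6 h and 3 h in the same libraries, limma again called 0 of the 12 (0% of 2270), with 1 of the 12 at an unadjusted p under 0.05. That was ncRNA_intra_chr1_615, whose level at 6 h was below that at 3 h with both agonists (log2 -0.86, SE 0.22, limma adjusted p = 0.364). Clock hour cannot be told apart from time after injection here.

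The 6 replicated pools compare female with male nuclei 3 h after TCPOBOP. Antisense lncRNAs of the locus differed in both directions. ncRNA_as_chr1_605 had 1.72, 3.42 and 1.95 RPKM in females against 9.33, 5.06 and 8.42 in males, and the pools did not overlap. It is given with no test, since its level in the male pools led to the window. Log2 differences are female minus male. ncRNA_as_chr1_603 had 4.43, 5.34 and 3.74 RPKM in females and 9.73, 10.4 and 7.96 in males (log2 -1.05, SE 0.19, limma adjusted p = 0.0160). ncRNA_as_chr1_614 had 4.95, 8.90 and 6.60 RPKM in females and 13.5, 11.2 and 14.6 in males (log2 -0.97, SE 0.23, limma adjusted p = 0.0426). The minus-strand ncRNA_intra_chr1_621 had 1.12, 1.18 and 1.32 RPKM in females and 2.99, 2.56 and 2.32 in males (log2 -1.06, SE 0.18, limma adjusted p = 0.0120).

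In the other direction, ncRNA_as_chr1_624 had 2.65, 1.23 and 1.73 RPKM in females (89, 53 and 53 reads) and 0.558, 0.509 and 0.438 in males (8, 5 and 7 reads). It was 3.73 times higher in females, 1.65 in log2 terms (SE 0.28, limma adjusted p = 0.0127). ncRNA_as_chr1_617 had 0.519, 0.522 and 0.514 RPKM in females and 0.290, 0.0846 and 0.104 in males (log2 1.34, SE 0.33, limma adjusted p = 0.0469).

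Of the other 19 lncRNAs of the locus tested, limma called 5, 2 higher and 3 lower in females, against 8.79% of 5951 lncRNAs, 3.92% higher and 4.87% lower. Pools did not overlap for 11 of all 20, against 31.3% of all tested, but the 11 include ncRNA_as_chr1_605, whose level in the male pools led to the window. The shares over the table are not matched in level. In the fit of lncRNAs with a mean RPKM of at least 1, limma called 239 of 1118 over the table. At the locus it called 5 of 12 there, counting ncRNA_as_chr1_605. In the main fit the median log2 difference was -0.26 over the 20 and -0.09 over the table. The calls rest on few pools. Without female pool 1 the call of ncRNA_as_chr1_624 alone remained, and without female pool 3 that of ncRNA_intra_chr1_621 alone. Without male pool 1, male pool 2 or male pool 3, 3 of the 5 remained each time. Over the alternative fits the call of ncRNA_as_chr1_614 was lost in 9 of 14 and that of ncRNA_as_chr1_617 in 8 of 13, with limma adjusted p up to 0.128 and 0.158. Those of ncRNA_as_chr1_603, ncRNA_intra_chr1_621 and ncRNA_as_chr1_624 were lost in 3, 2 and 1 of 14.

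Others of the locus did not pass. ncRNA_as_chr1_622 had 7.91, 9.78 and 6.83 RPKM in females and 14.1, 8.75 and 11.7 in males, so the pools overlapped (log2 -0.48, SE 0.22, limma adjusted p = 0.223). ncRNA_as_chr1_612 had 4.79, 5.93 and 4.57 RPKM against 5.71, 6.22 and 6.93, overlapping too. ncRNA_intra_chr1_606 had 5.54, 8.18 and 6.51 RPKM in females and 17.8, 7.71 and 12.9 in males (limma adjusted p = 0.127). The steady ncRNA_intra_chr1_613 had 8.56 ± 0.343 and 10.9 ± 0.826 RPKM (limma adjusted p = 0.185). ncRNA_intra_chr1_611 had 5.91, 6.12 and 6.25 RPKM in females and 4.06, 5.49 and 4.72 in males, and ncRNA_intra_chr1_618, at 141701058-141981577, 1.67, 1.36 and 1.63 against 1.20, 0.836 and 1.20.

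The 2 intergenic lncRNAs at the start of the locus varied within the female group. ncRNA_inter_chr1_610 had 1.40 and 1.66 RPKM (273 and 414 reads) in female pools 1 and 2 and 0.123 (22 reads) in pool 3, where it stood at the level of the male pools. The log2 difference between the sexes was 1.84 (SE 0.72, limma adjusted p = 0.158), and without female pool 3 it was called higher in females. ncRNA_inter_chr1_602 had 3.96 and 3.502 RPKM in female pools 1 and 2 and 1.56 in pool 3. Both lncRNAs were highest in the PCN library, at 3.26 and 5.65 RPKM. Each sex is 1 experiment, G86 or G95, and neither experiment held both sexes, so experiment and sex cannot be told apart. The male pools are also those of the contrast through which the locus was picked. The male pools also held 7314289 to 11897587 reads against 22856142 to 31977159 in the female ones, and the part of depth in these differences was not tested.

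**Figure D5:**
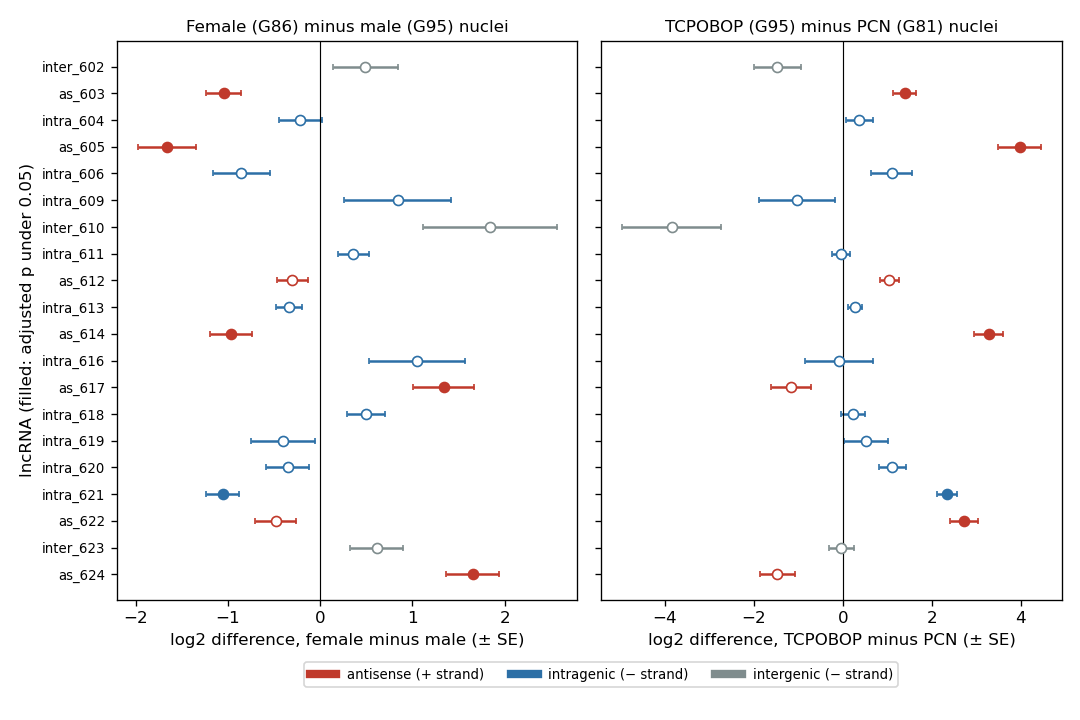
Log2 differences with SE of the 20 tested lncRNAs of the locus, female minus male nuclei on the left and TCPOBOP minus PCN in male nuclei on the right, filled where the limma adjusted p is under 0.05. ncRNA_as_chr1_605 is drawn as a description, and both panels use the 3 male TCPOBOP pools of G95, so they are not independent of each other.

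Across the 12 libraries the lncRNAs outside the locus whose log2 levels followed ncRNA_as_chr1_605 most closely were ncRNA_as_chr6_5121 at chromosome 6 49202541-49213910 (Pearson r = 0.995) and ncRNA_as_chr6_5386 at chromosome 6 91691069-91704993 (r = 0.992). ncRNA_inter_chr7_6650 (r = 0.990), ncRNA_as_chr16_13472 (r = 0.990) and ncRNA_as_chr16_13273 (r = 0.989) came next, of 2330 candidates. Of the 5, 4 are antisense, but the antisense share of the candidates was not counted. ncRNA_as_chr1_605 had no read in the stranded libraries. Of lncRNAs read in all 8 unstranded libraries, that held for 22.9% of antisense and 7.87% of intergenic ones over the whole table. In the stranded libraries ncRNA_as_chr6_5386 and ncRNA_as_chr16_13472 had 0 RPKM and ncRNA_as_chr6_5121 at most 0.00316. ncRNA_inter_chr7_6650 had 0.162 to 0.188 RPKM there and ncRNA_as_chr16_13273 had 0.0815 to 0.176. ncRNA_as_chr6_5121 had 0.1004 RPKM in unstranded whole liver, 0.192 in PCN nuclei, 1.02, 1.76 and 1.12 in female and 2.69, 1.72 and 2.40 in male TCPOBOP nuclei. Within the locus, ncRNA_as_chr1_614 (r = 0.981), ncRNA_intra_chr1_620 (r = 0.972) and ncRNA_intra_chr1_621 (r = 0.966) were closest. Over the 8 unstranded libraries ncRNA_as_chr1_624 ran opposite to it (r = -0.823). These values are descriptions over libraries that differ in strand, compartment, depth and experiment at once.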

How the data were processed

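Values are the RPKM that the authors deposited, per the file headers, in 1 table of lncRNAs whose sheet name says FPKM. Reads were aligned with TopHat2 to mm9, per the submitters' processing notes. No source used here names the counting tool, its strand setting, the aligner version or the annotation. Of 25 value columns, 12 matched a sample label and 13 were not used. Library totals and lncRNA lengths could be solved for under which 100% of 89242 values above 0 were whole reads within 1e-06 of a read. A count of 0 allows up to 3 reads.

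Levels were tested as log2(RPKM + 0.1) with limma 3.58.1 in R 4.3.3, with its trend option, p-values were adjusted by Benjamini-Hochberg over all lncRNAs tested, and adjusted p below 0.05 counted as called. Fold changes on this scale understate those of low lncRNAs. Filters were 0.1 RPKM in 3 of the 6 replicated pools, 2 of the 8 unstranded libraries or 2 of the 4 stranded libraries. The contrasts with 1 nuclear PCN or 1 whole-liver library came from a fit of the 8 unstranded libraries by group, where the single library is assumed to vary like the pools. The 4 stranded libraries had 1 additive fit of agonist and time. P-values in the fits with pools measure the spread between pools of livers within the female and the male group. They measure no spread between experiments or between PCN or whole-liver libraries. The fit of female against male pools was tested on simulated data, and the other fits were not. lncRNAs described singly had at least 1 RPKM in a library or were called in a tested comparison. The closest patterns came from lncRNAs with 0.5 RPKM in 3 libraries. The lncRNAs, lists and tests were chosen with earlier results of these data known. Alternatives covered pseudocount, filter, scaling, single pools, the libraries fitted, a replicate block and limma-voom on recovered reads, the last chosen after seeing the data. The genes around the locus are not reported here.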

Additional observations from a re-analysis of the deposited data

Results flagged for a closer look

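ncRNA_intra_chr1_626 moved in opposite directions with the agonists at the 2 times in stranded whole liver. TCPOBOP minus PCN was -0.95 on the log2(RPKM + 0.1) scale at 3 h (39 against 76 reads) and 0.63 at 6 h (55 against 32 reads). Each value is 1 library against 1 library, and the difference between the times was not tested.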

How the results depend on the processing

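For female against male nuclei, 6 lncRNAs of the locus were called, counting ncRNA_as_chr1_605 here as in all counts that follow. As that lncRNA led to the window, its calls support nothing. Without it the main fits called 5 of 19 between the sexes, against 8.79% of 5951 lncRNAs. They called 4 of 19 between the agonists in nuclei, against 4.27% of 7401. Both fits reuse the male pools of the contrast through which the locus was picked, so these counts are not independent of that choice. The shares over the table are not matched in level either. For the sexes, the count of 6 became 1 to 5 when single pools were left out. It was 4 to 6 under the other pseudocounts, filters and scalings and with limma-voom. Calls over all lncRNAs moved from 523 to between 159 (without female pool 1) and 778 (limma-voom). With the pool number as a replicate block the locus had 2 calls, and all lncRNAs together 287. The numbers do not pair the pools, since deviations of same-numbered pools correlated at -0.0176, -0.0742 and -0.000223 over lncRNAs. For TCPOBOP against PCN in nuclei 5 were called, 4 without any single male pool and 4 to 7 under the others, while calls over all lncRNAs moved from 316 to between 127 and 728. In stranded whole liver the agonist count of 0 became 1 with a mean RPKM of at least 1 (ncRNA_intra_chr1_606; 17 of 251 lncRNAs), and the time count of 0 became 1 with the spread from all 12 libraries (ncRNA_intra_chr1_626; 469 of 2270 lncRNAs). That spread gave 396 calls between the agonists, 0 of them at the locus. Fewer lncRNAs or more libraries enter those fits.

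The median nuclear minus whole-liver log2 difference of 0.86 over the locus moved to 0.41 with a pseudocount of 1, 1.54 with a mean RPKM of at least 1 and 1.34 with the libraries of the contrast alone. It was 0.69 to 1.10 without single male pools. No sign changed in 148 refitted differences of single lncRNAs. These were only of lncRNAs called between the sexes or agonists in nuclei, and of ncRNA_as_chr1_605 alone between nuclei and whole liver. The refits reuse most of the same data, so a kept sign says little, and nothing of the other lncRNAs of the locus. The time median of the locus turned from -0.11 to 0.05 both with medians set equal and with quantile normalization. Setting the medians equal moved the median of all lncRNAs from -0.09 to 0.05 between the sexes, from 0.25 to 0.00 between the agonists in nuclei and from 0.27 to 0.03 between nuclei and whole liver. Higher calls over the table then made up 58.5% against 44.6% and 48.7% against 67.1% of calls in the first pair. Depth limits the male pools, where ncRNA_as_chr1_617 had 5, 1 and 2 reads.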

Other observations

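The split between library types was not confined to the locus. Among all lncRNAs listed, 1190 antisense lncRNAs had a read in all 8 unstranded libraries, and 273 of them (22.9%) had none in the 4 stranded ones. The shares were 7.87% of 3454 intergenic and 4.55% of 110 intragenic lncRNAs. At the chromosome 1 locus 6 of 7 such antisense lncRNAs had none. In the opposite direction, 171 lncRNAs had at least 1 RPKM in all 4 stranded libraries, and 23 of these (13.5%), ncRNA_intra_chr1_626 among them, had no read in the 8 unstranded ones. Its level of 6.87 to 15.98 RPKM in the stranded libraries was below the 268 to 323 RPKM of ncRNA_intra_chr16_13383 at chromosome 16 57391224-57391795, another of the 23.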
